A study of Mus musculus with 5 samples.

Results

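The base excision and Gadd45 factors that are linked to active DNA demethylation were followed across 5 oligonucleotide arrays of mouse embryonic stem cells depleted of Tet1. The list held 9 genes: the glycosylases Tdg, Smug1, Mbd4 and Ung, the abasic endonuclease Apex1, the stress proteins Gadd45a, Gadd45b and Gadd45g, and the cytidine deaminase Apobec1. A probe set, which is a group of oligonucleotides designed to read a gene's transcripts, was taken where the platform annotation listed exactly 1 gene symbol for it. This gave 14 probe sets of 8 genes, out of 34945 probe sets and 18193 genes annotated in that way. Tdg had 0 such probe sets, because its 3 probe sets are listed together with 2 Tdg pseudogenes, and it was not measured here.

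The arrays came from 5 groups of 1 array each. J1 cells, grown with mouse embryonic fibroblasts as feeders, had received an siRNA against Tet1 or a control siRNA and were taken 4 days later. E14 cells, grown feeder-free, had been infected with lentivirus for Tet1 shRNA3387, Tet1 shRNA2863 or a scrambled shRNA and were taken after 4 days in puromycin. Line, feeders and mode of depletion therefore cannot be told apart between J1 and E14. The effect of Tet1 depletion within each line was the question the study posed.

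Tet enzymes oxidize 5-methylcytosine step by step, and base excision repair can then exchange the oxidized base for cytosine. A glycosylase removes the base, Apex1 cuts the backbone at the abasic site, and a polymerase and ligase fill the gap. A second proposed route starts with deamination by APOBEC enzymes. Gadd45 proteins are small stress-inducible adaptors without enzyme activity that have been proposed to bring repair proteins to methylated sites, and they also bind the MAP kinase kinase kinase Map3k4.

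All values are deposited log2 probe set summaries, and each difference is on the log2 scale as depleted minus the control of the same line, or J1 minus E14. The filter kept a probe set that exceeded the 40th percentile of its array on at least 1 array, which left 29001 of 45037 non-control probe sets and all 14 of these genes, each above that percentile on 5 of 5 arrays. The percentile lay between 3.03 and 3.12. The brightest Tet1 probe set read 8.31 with Tet1 siRNA against 10.85 with control siRNA in J1, and 9.24 with shRNA3387 and 10.06 with shRNA2863 against 10.95 with scramble in E14. The 8 stem cell markers (Pou5f1, Sox2, Nanog, Zfp42, Dppa5a, Tdgf1, Utf1 and Klf4) were all kept, and their mean level lay between 10.77 and 11.50 on the 5 arrays. The 3′ minus 5′ difference of control probe sets was 0.31 for Actb and -0.58 for Gapdh on the J1 Tet1 siRNA array, and 0.63 and -0.33 on the J1 control array. The E14 arrays lay between these, at 0.41 to 0.54 and -0.46 to -0.42. Since RNA was taken from whole cultures, fewer cells of a type and less RNA per cell cannot be told apart.

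With Tet1 depletion, no probe set of these genes passed the test over both lines, and the largest single differences were of about the size that many other probe sets showed. The fit over both lines (limma, with a line term and a Tet1 term, 3 depleted and 2 control arrays) called 0 of 14 at a Benjamini-Hochberg adjusted p under 0.05, with 0% called among all 29001. At an unadjusted p under 0.05 it held 1 of the 14, a probe set of Apex1, where 5.97% of all probe sets were past it. The lowest adjusted p of any probe set on the array was 0.754. The kept Tet1 probe sets had this value too, with estimates of -1.83, -2.24 and -1.45 and unadjusted limma p of 0.0101 to 0.0176. As the test did not call the depleted gene itself, 0 called does not show that these genes were unchanged. In the pair of J1 arrays, 10 of the 14 probe sets were lower and 4 higher with Tet1 siRNA, with a median difference of -0.26, against 44.8% of all kept probe sets lower and a median of 0.01. The 10 included all 3 probe sets of Apex1. By brightest probe set, 6 of the 8 genes were lower in this pair, against 50.4% of all kept genes. The share of lower probe sets depended on level: 57.5% of the 11597 with a mean over 6 were lower in this pair, and 7 of the 9 among these genes. With shRNA3387, 8 of 14 were lower and 6 higher (median -0.03, against -0.02 and 58.9% lower over all), and with shRNA2863, 9 were lower and 5 higher (median -0.05, against -0.01 and 56.3% lower over all). Among probe sets with a mean over 6, 6 of 9 of these genes' were lower with shRNA3387 and 5 of 9 with shRNA2863, against 41.5% and 42.6% of all. Both hairpins share 1 scramble array. Markers moved with the J1 pair too: the 8 stem cell markers were all lower with Tet1 siRNA, with a median of -0.41 and Nanog lowest at -0.88. The 5 primitive endoderm markers were all higher, with a median of 0.25, but at low mean levels of 3.93 against 3.73. Of the 17404 kept probe sets with a mean of 6 or under, 58% were higher in this pair. Of the 3 kept trophectoderm markers Krt18 was higher by 0.71 and Krt8 by 0.41 in this pair, while Eomes differed by -0.09. The 3′ minus 5′ differences of the control probe sets were lower on the Tet1 siRNA array than on its control, as given above. In E14 Krt8 and Krt18 differed by -0.71 and -0.59 with shRNA3387 and by 0.67 and 0.73 with shRNA2863, and Eomes by 0.71 and 0.67. Of the 9 kept fibroblast markers 8 were lower and 1 higher with shRNA3387 (median -0.24). With shRNA2863 5 were lower and 4 higher (median -0.01), as in the J1 pair (median -0.1). Acta2 and Col1a1 differed by -1.46 and -1.31 with shRNA3387 and by 0.21 and -0.72 with shRNA2863, and Thy1 by 0.43 and 0.78. In J1 they differed by -0.13, -0.50 and -0.44, and Vim by 0.53. Col1a1 was at a low level, at 3.3 with shRNA3387 and 4.61 with scramble, where the filter percentile was 3.05 and 3.12. The part of these marker and control differences in the differences below was not tested.

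By size, 1 of the 14 probe sets was at least 1.5-fold higher with Tet1 siRNA in J1, that of Gadd45g, where 5.94% of all kept probe sets were. In that pair 0 were at least 1.5-fold lower, against 5.61% of all. With shRNA3387, 2 were at least 1.5-fold higher, both of Mbd4 (6.91% of all), and 0 were lower (3.22% of all). With shRNA2863, 0 were higher (4.47% of all) and 0 lower (3.13% of all). These shares leave 0 to 2 probe sets past the fold in each pair, and single pairs of arrays carry no replicate error.

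**Figure D1:**
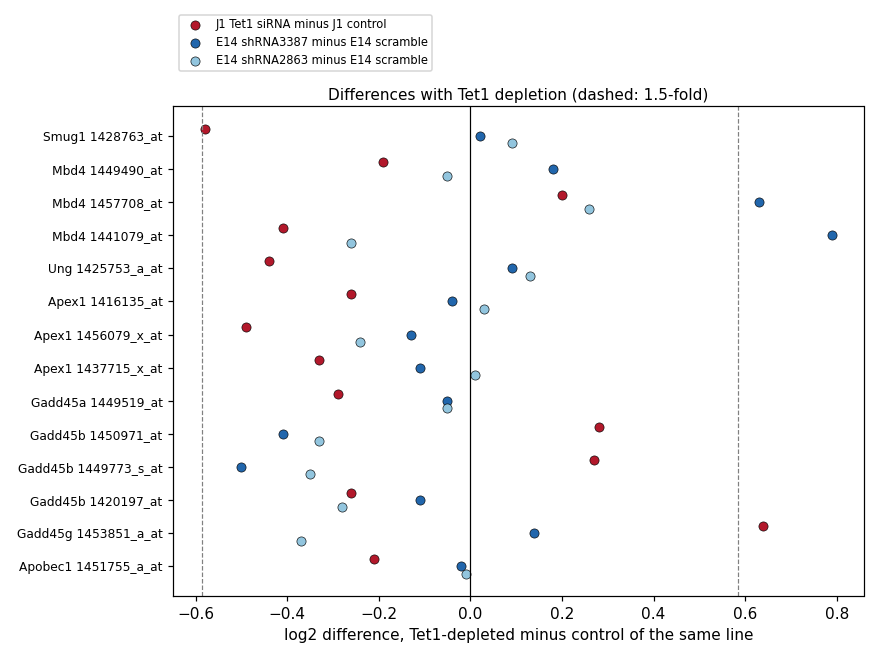
log2 differences of the 14 probe sets (rows) for J1 Tet1 siRNA minus J1 control, E14 shRNA3387 minus scramble and E14 shRNA2863 minus scramble, 1 point per pair of arrays. The dashed lines mark 1.5-fold; Gadd45g in J1 (0.64) and Mbd4 probe sets with shRNA3387 (0.79 and 0.63) lie beyond them, and Smug1 in J1 (-0.58) lies just inside.

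Among the glycosylases, Smug1 had the largest J1 difference. Smug1 excises uracil and 5-hydroxymethyluracil, the base that deamination of 5-hydroxymethylcytosine would give. Its probe set 1428763_at read 6.41 with Tet1 siRNA and 6.99 with control siRNA in J1, and 5.75 with shRNA3387, 5.82 with shRNA2863 and 5.73 with scramble in E14. The J1 control array was the highest of the 5 and the E14 arrays lay within 0.09 of the scramble array. The J1 difference of -0.58 left 66.9% of the control level, and the hairpins differed by 0.02 and 0.09. Over both lines the difference was -0.22 ± 0.19 (SE; limma adjusted p = 0.782). The effect in J1 minus the effect in E14 was -0.64 ± 0.13 (SE), with an unadjusted limma p of 0.038 and an adjusted p of 0.25.

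Ung, the main nuclear and mitochondrial uracil glycosylase, was also lower in the J1 pair. Probe set 1425753_a_at read 8.93 with Tet1 siRNA and 9.37 with control siRNA, against 9.63 with shRNA3387, 9.67 with shRNA2863 and 9.54 with scramble in E14. The J1 Tet1 siRNA array was the lowest of the 5, at 73.7% of its control, and all 3 E14 arrays were above both J1 arrays. Its differences were -0.44 in J1 and 0.09 and 0.13 with the hairpins, and -0.13 ± 0.16 over both lines (SE; limma adjusted p = 0.867). The difference of effects between the lines was -0.55 ± 0.10 (SE), with unadjusted p = 0.0289 and adjusted p = 0.233 in limma.

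Mbd4, a methyl-CpG binding protein with a glycosylase domain that removes thymine or uracil opposite guanine, was read by 3 probe sets that did not move together. The brightest, 1449490_at, read 6.94 with Tet1 siRNA and 7.13 with control siRNA in J1, and 6.79 with shRNA3387, 6.56 with shRNA2863 and 6.61 with scramble in E14. Its differences were -0.19, 0.18 and -0.05. The middle probe set, 1457708_at, was higher than its control in all 3 depletions, by 0.20, 0.63 and 0.26, from values of 4.90 against 4.70 in J1 and of 5.30 and 4.93 against 4.67 in E14. The dimmest, 1441079_at, read 5.13 with shRNA3387, against 4.08 with shRNA2863 and 4.34 with scramble, and 3.52 with Tet1 siRNA against 3.93 with control siRNA in J1. The difference of 1.05 between the hairpins on that probe set was the widest among the 14, and over all kept probe sets the hairpins differed by a median of 0.1 in size with a 95th percentile of 0.62. Over both lines the 3 estimates were -0.04 ± 0.14, 0.34 ± 0.16 and -0.02 ± 0.41 (SE), with limma adjusted p of 0.97, 0.754 and 0.995.

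Apex1 cleaves DNA at the abasic sites that glycosylases leave, and also acts as a redox factor. Its brightest probe set, 1416135_at, read 11.27 with Tet1 siRNA and 11.53 with control siRNA in J1, and 11.43 with shRNA3387, 11.50 with shRNA2863 and 11.47 with scramble in E14, a range of 0.26. The probe set 1456079_x_at read 10.36 and 10.85 in J1 with Tet1 and control siRNA, and 11.02, 10.91 and 11.15 in E14 with shRNA3387, shRNA2863 and scramble. The probe set 1437715_x_at read 10.35 and 10.68 in J1, and 10.92, 11.04 and 11.03 in E14, in the same orders. All 3 were lowest on the J1 Tet1 siRNA array, with J1 differences of -0.26, -0.49 and -0.33. The suffix x marks probes that may also bind other transcripts. In the fit over both lines 1456079_x_at differed by -0.32 ± 0.10 (SE), with an unadjusted limma p of 0.0405 and an adjusted p of 0.754, and the other two by -0.11 ± 0.08 and -0.17 ± 0.10.

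Apobec1, the cytidine deaminase known for editing apolipoprotein B RNA in the intestine, varied least. Its probe set 1451755_a_at read 4.78 with Tet1 siRNA and 4.99 with control siRNA in J1, and 4.77, 4.78 and 4.79 with shRNA3387, shRNA2863 and scramble in E14. Apart from the J1 control array, all values lay within 0.02 of each other. The difference over both lines was -0.10 ± 0.09 (SE; limma adjusted p = 0.789).

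**Figure D2:**
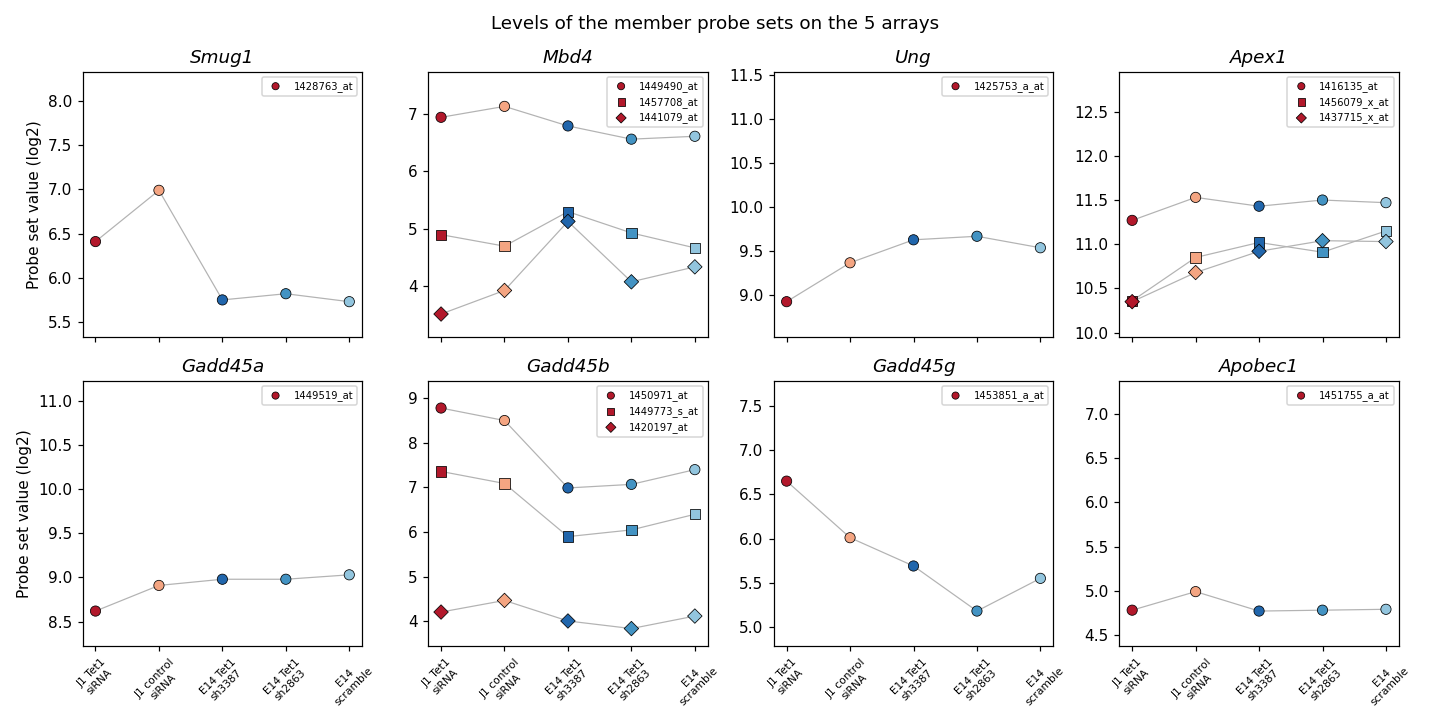
Probe set values (log2, 1 point per array) of the 8 measured genes on the 5 arrays, with 1 marker shape per probe set and the vertical axis set for each gene. Smug1, Gadd45b and Gadd45g stand higher on both J1 arrays than on the 3 E14 arrays, and Ung and Gadd45a lower; Gadd45g reads 6.65 with Tet1 siRNA and 6.01 with control siRNA in J1.

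The 3 Gadd45 genes did not follow 1 pattern. Gadd45a, the member first known as a p53 target, read 8.62 with Tet1 siRNA and 8.91 with control siRNA in J1, and 8.98, 8.98 and 9.03 with shRNA3387, shRNA2863 and scramble in E14. The J1 Tet1 siRNA array was the lowest and the E14 arrays lay within 0.05 of each other. The J1 difference was -0.29 and the estimate over both lines -0.15 ± 0.10 (SE; limma adjusted p = 0.754).

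Gadd45b, an immediate early gene induced by stress and by TGF-beta, had higher J1 than E14 values in each of its 3 probe sets. The brightest, 1450971_at, read 8.78 with Tet1 siRNA and 8.50 with control siRNA in J1, and 6.99 with shRNA3387, 7.07 with shRNA2863 and 7.40 with scramble in E14. The probe set 1449773_s_at, whose suffix s marks probes shared by several transcripts, read 7.36 and 7.09 in J1, and 5.90, 6.05 and 6.40 in E14, in the same orders. On both, the J1 depleted array was above its control and both hairpin arrays were below theirs. The differences were 0.28, -0.41 and -0.33 on 1450971_at, and 0.27, -0.50 and -0.35 on 1449773_s_at. The dimmest probe set, 1420197_at, differed by -0.26, -0.11 and -0.28, so it was lower in J1 as well. The effect in J1 minus the effect in E14 was 0.65 ± 0.14 on 1450971_at (SE; unadjusted p = 0.0408, adjusted p = 0.256 in limma), 0.70 ± 0.18 on 1449773_s_at (adjusted p = 0.288) and -0.07 ± 0.17 on 1420197_at (adjusted p = 0.878).

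Gadd45g, a growth arrest gene that acts in gonad and neural development, had the largest J1 difference of the 14 probe sets. Probe set 1453851_a_at read 6.65 with Tet1 siRNA and 6.01 with control siRNA in J1, and 5.69 with shRNA3387, 5.18 with shRNA2863 and 5.55 with scramble in E14. The J1 Tet1 siRNA array was the highest, 1.56-fold above its control, while the hairpins lay on either side of the scramble array at 0.14 and -0.37. After quantile normalization the shRNA3387 difference was -0.01. The estimate over both lines was 0.21 ± 0.28 (SE; limma adjusted p = 0.872), and the difference of effects between the lines was 0.76 ± 0.48 (SE; adjusted p = 0.54).

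In E14 alone, the limma fit in which the hairpin pair gives the only residual degree of freedom called 0 of the 14 at an adjusted p under 0.05, as it did 0% of all probe sets. It held 0 of the 14 at an unadjusted p under 0.05, where 12.2% of all were past it. For the difference of effects between the lines it called 0 of 14, with 0% of all called, and 3 of 14 were past an unadjusted p of 0.05, where 18.3% of all were. These 3 were the probe sets of Smug1, Ung and Gadd45b described above, a share close to the one over all probe sets. For depletion in E14 the kept Tet1 probe sets themselves had limma adjusted p of 0.493 to 0.551. The 0 called there therefore does not show that these genes were unchanged.

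The start site regions of the Gadd45 genes are shown because these genes differ in their patterns above. RefSeq promoters of GRCm38.p6, 250 bases before to 50 after the start, matched 9 of 9 genes. The Gadd45a region lies at chr6:67037358-67037657 on the minus strand, the Gadd45b region at chr10:80929841-80930140 on the plus strand and the Gadd45g region at chr13:51846425-51846724 on the plus strand. Each is printed 5′ to 3′ on the strand of its gene, and capitals mark the TATAAA box, the CCAAT box and the E-box CACGTG, searched on both strands.
Gadd45a promoter: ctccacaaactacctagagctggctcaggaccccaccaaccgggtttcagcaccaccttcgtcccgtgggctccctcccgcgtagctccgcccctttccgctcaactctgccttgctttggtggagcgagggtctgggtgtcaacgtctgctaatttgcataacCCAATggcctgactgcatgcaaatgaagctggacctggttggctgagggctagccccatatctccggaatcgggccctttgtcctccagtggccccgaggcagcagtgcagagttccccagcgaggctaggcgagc
Gadd45b promoter: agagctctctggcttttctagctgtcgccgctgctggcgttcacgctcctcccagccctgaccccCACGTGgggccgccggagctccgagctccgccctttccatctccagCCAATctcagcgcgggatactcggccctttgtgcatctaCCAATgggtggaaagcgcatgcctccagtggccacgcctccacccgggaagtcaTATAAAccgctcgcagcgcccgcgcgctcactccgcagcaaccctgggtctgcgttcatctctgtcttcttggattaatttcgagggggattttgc
Gadd45g promoter: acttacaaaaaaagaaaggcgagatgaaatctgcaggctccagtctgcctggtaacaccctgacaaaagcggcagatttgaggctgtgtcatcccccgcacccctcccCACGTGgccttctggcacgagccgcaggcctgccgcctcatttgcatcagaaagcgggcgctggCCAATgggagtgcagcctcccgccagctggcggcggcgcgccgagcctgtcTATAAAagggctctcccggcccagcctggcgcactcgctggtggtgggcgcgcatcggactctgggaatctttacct

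Gadd45b and Gadd45g each hold a TATAAA, starting 46 and 27 bases before the annotated start, a CACGTG, starting 185 and 142 bases before it, and at least 1 CCAAT, while Gadd45a holds a CCAAT that starts 86 bases before it and neither of the other two. Among the 9 promoters, 3 hold TATAAA on either strand, 7 hold CCAAT and 4 hold CACGTG, against 13.6%, 37.4% and 7.2% of all 32851 promoters. GGGCGG, also searched on both strands, is in 6 of the 9 and in 35.7% of all. The 300-base windows held 14 CG dinucleotides in Gadd45a, 24 in Gadd45b and 21 in Gadd45g, and 31 in Apex1, 26 in Tdg, 25 in Mbd4, 16 in Ung, 15 in Smug1 and 9 in Apobec1. All 9 were at or above the median of 7 over all promoters, as 52.1% of promoters were. These letters describe the windows and were not tied to any measurement of binding or methylation here.

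Between the lines, Gadd45b was the gene with a difference that passed the test. Its probe set 1450971_at was higher in J1 by 1.47 ± 0.19 (SE, 2 J1 and 3 E14 arrays; limma adjusted p = 0.0293), and higher on both J1 arrays than on all 3 E14 arrays. Between the control arrays alone it was 2.14-fold higher in J1 (8.50 against 7.40). The adjusted p was 0.0779 without the J1 Tet1 siRNA array, 0.13 without shRNA3387 and 0.114 without shRNA2863, so the call did not hold without any of these 3 arrays. The other two Gadd45b probe sets were higher in J1 by 1.09 ± 0.21 (adjusted p = 0.0555) and 0.31 ± 0.09 (adjusted p = 0.11).

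This line term called 1 of the 14 probe sets, where it called 14.7% of all 29001, so the share of these genes called is not above that of the array. The 14.7% itself fell to 0 called probe sets without the J1 Tet1 siRNA array, without shRNA3387 or without shRNA2863. At an unadjusted p under 0.05 it held 8 of 14, against 31.4% of all. The 8 included more than 1 probe set of Gadd45b and of Apex1, and probe sets of the same gene are not independent. By brightest probe set it held 4 of the 8 genes. Smug1 was higher in J1 by 0.90 ± 0.19 (SE; limma adjusted p = 0.0659) and 2.39-fold higher between the control arrays, and Gadd45g by 0.89 ± 0.28 (adjusted p = 0.136). Lower in J1, without passing the adjustment, were the Apex1 probe sets 1437715_x_at (-0.51 ± 0.10, adjusted p = 0.054) and 1456079_x_at (-0.47 ± 0.10, adjusted p = 0.0657) and the Ung probe set (-0.48 ± 0.16, adjusted p = 0.15). The brightest Apex1 probe set differed by -0.09 ± 0.08 (adjusted p = 0.526). Gadd45a differed by -0.26 ± 0.10 (adjusted p = 0.191), Apobec1 by 0.09 ± 0.09 (adjusted p = 0.548), and the Mbd4 probe sets by 0.37 ± 0.14, -0.11 ± 0.16 and -0.80 ± 0.41 (adjusted p = 0.181, 0.686 and 0.297).

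**Figure D3:**
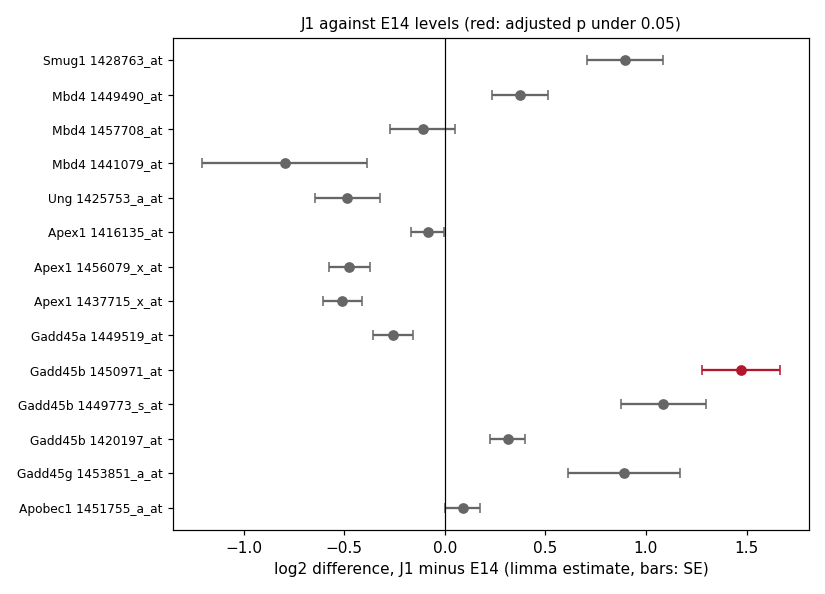
Limma estimates of J1 minus E14 (log2, bars are SE, 2 J1 and 3 E14 arrays) for the 14 probe sets in rows. Gadd45b 1450971_at at 1.47, in red, is the one with an adjusted p under 0.05; Smug1, Gadd45g and the other Gadd45b probe sets lie right of 0 and Apex1, Ung and Gadd45a left of it.

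Without a model, both J1 arrays were above all 3 E14 arrays for 6 of the 14 probe sets (those of Smug1, Gadd45b and Gadd45g and 1 of Mbd4), where 22.4% of all kept probe sets were. Both were below for 5 of the 14, where 27.3% of all were. Between the control arrays alone, 3 of the 14 were at least 1.5-fold higher in J1 (15.5% of all), 2 of Gadd45b and that of Smug1, and 0 at least 1.5-fold lower (9.32% of all).

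Markers of the feeder cells present in J1 cultures were read beside this. Of 12 fibroblast markers 11 had a probe set and 9 were kept; Postn and Dcn were under the filter level on all arrays. In J1 control cells 2 of the 9 were higher and 7 lower than in E14 scramble cells. The mean level of the 9 was 5.44 and 5.50 on the J1 Tet1 siRNA and control arrays, and 4.98, 5.37 and 5.35 on the shRNA3387, shRNA2863 and scramble arrays. Col1a2 was the marker that passed the test, at 5.95 and 6.24 on the J1 arrays against 3.59, 3.61 and 3.62 on the E14 arrays (2.47 ± 0.10 SE, limma adjusted p = 0.0115). Of 5 trophectoderm markers Krt8 and Krt18 were 3.78-fold higher in J1 control than in E14 scramble cells, Eomes was 1.51-fold lower, and Cdx2 and Elf5 were not kept. The primitive endoderm markers (Gata6, Gata4, Sox17, Sox7 and Dab2) had a mean level of 3.93 and 3.73 on the J1 arrays and of 3.79, 3.73 and 3.87 on the E14 arrays. Of the 8 stem cell markers 3 were called lower in J1 by the line term, Klf4 by -2.19 ± 0.22 (SE; limma adjusted p = 0.0194), Sox2 by -0.80 ± 0.11 (adjusted p = 0.03) and Tdgf1 by -0.54 ± 0.10 (adjusted p = 0.0488). The part of other cells and of these marker differences in the Gadd45b and Smug1 differences between the lines was not tested.

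Other genes of the same pathways, each read by its brightest probe set, were mostly within 1.5-fold of their controls. Of 39 listed genes 32 were kept. In J1 0 of them were at least 1.5-fold higher and 1 lower with Tet1 siRNA, against 2.91% and 6.09% of all 13619 kept genes. With shRNA3387 0 were past the fold either way, against 5.39% higher and 3.36% lower of all, and with shRNA2863 2 were lower and 0 higher, against 3.26% and 3.63% of all. The median difference over the 32 was -0.08 in J1, 0.04 with shRNA3387 and 0.00 with shRNA2863, beside -0.01, -0.02 and -0.01 over all kept genes. The test over both lines called 0 of the 32, with 2 at an unadjusted p under 0.05, where 5.97% of all kept probe sets were. That test did not call Tet1 either.

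The 6 kept glycosylases other than these members were Ogg1, Mutyh, Nthl1, Neil1, Neil3 and Mpg, and 5 of them were lower with Tet1 siRNA in J1, where 50.4% of all kept genes were. Neil1, which removes oxidized pyrimidines, read 5.33 with Tet1 siRNA and 5.68 with control siRNA in J1, and 5.32 with shRNA3387 and 4.63 with shRNA2863 against 5.35 with scramble, so it was 1.65-fold lower with shRNA2863 alone. Mpg, the alkyladenine glycosylase, differed by -0.38, 0.23 and 0.07, and Mutyh, which removes adenine opposite 8-oxoguanine, by -0.36, 0.25 and 0.00. Neil3 differed by -0.07, 0.23 and -0.02. Between the control arrays Neil1 differed by 0.33 and Nthl1, a glycosylase for oxidized pyrimidines, by 0.28.

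Of 17 genes that act after the glycosylase 15 were kept. The scaffold protein Xrcc1 read 6.76 with Tet1 siRNA and 7.25 with control siRNA in J1, and 7.29 with shRNA3387 and 6.79 with shRNA2863 against 7.39 with scramble in E14. The shRNA2863 array was 1.52-fold below its control and the shRNA3387 array 1.07-fold. The ligase Lig1 differed by -0.42, 0.03 and 0.16, the clamp loader subunit Rfc1 by -0.44, 0.17 and 0.11, and the poly(ADP-ribose) polymerase Parp2 by -0.28, 0.11 and -0.18. Between the lines the flap endonuclease Fen1 was higher in J1 by 0.57 ± 0.08 (SE; limma adjusted p = 0.0339), the 1 gene of the 32 that the line term called, where it called 7.31% of all kept genes higher and 5.85% lower. The ligase Lig3, partner of Xrcc1, was 2.33-fold higher in J1 between the control arrays (adjusted p = 0.14 for the line term).

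Of the other APOBEC deaminases Apobec2 and Apobec3 were kept and Apobec4 was not. Apobec3, a restriction factor for retroviruses, read 7.49 with Tet1 siRNA and 8.33 with control siRNA in J1, and 7.24 with shRNA3387, 6.88 with shRNA2863 and 7.25 with scramble in E14. It was 1.79-fold lower in the J1 pair and 2.11-fold higher in J1 than in E14 between the control arrays, with both J1 arrays above the 3 E14 arrays. Its estimate over both lines was -0.47 ± 0.23 (SE), with an unadjusted limma p of 0.12 across the 5 arrays in the fit over all probe sets. Apobec2, which is known from muscle, differed by 0.01, -0.02 and 0.39.

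Among 9 kept partners and signalling genes of Gadd45, Ercc5 and Ing1 were the 2 of the 32 pathway genes past an unadjusted limma p of 0.05 over both lines, beside 5.97% of all probe sets. The repair endonuclease Ercc5, also called XPG, read 7.01 with Tet1 siRNA and 6.68 with control siRNA in J1, and 7.15 and 7.28 with shRNA3387 and shRNA2863 against 6.81 with scramble in E14. All 3 depleted arrays were above their controls, by 0.33, 0.34 and 0.47, and the estimate over both lines was 0.37 ± 0.10 (SE). The chromatin reader Ing1 read 8.28 against 8.80 in J1, and 8.37 and 8.13 against 8.63 in E14, in the same orders. All 3 were below their controls, by -0.52, -0.26 and -0.50, and the estimate over both lines was -0.44 ± 0.12 (SE). The kinase Map3k4 differed by 0.23, 0.54 and 0.14, and the kinase Mapk8 by -0.39, -0.01 and 0.08. Neither Ercc5 nor Ing1 passed the adjustment over all probe sets. Between the control arrays the cell cycle inhibitor Cdkn1a differed by -0.46 and Taf12, a subunit of the general transcription factor TFIID, by 0.45.

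**Figure D4:**
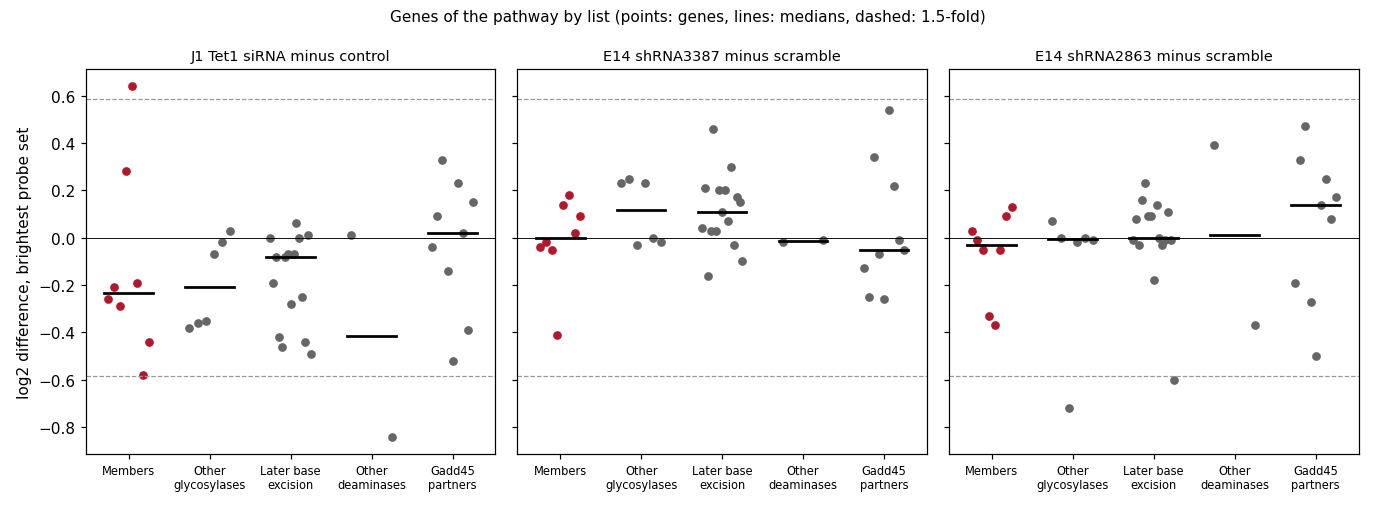
log2 differences of the brightest probe set of each kept gene (points) in the member list and the 4 pathway lists in the 3 pairs of arrays, with the list medians as lines and 1.5-fold as dashed lines. Members (red) have a J1 median of -0.24, and Apobec3 in J1 (-0.84) and Neil1 with shRNA2863 (-0.72) are the lowest points in these lists.

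The genes most like Gadd45b, Gadd45g and Smug1 over the 5 arrays were found by the Euclidean distance between profiles centred on their own mean, among 13618 other genes. These 3 were the genes whose brightest probe set spanned at least 1 log2 unit. Nearest to Gadd45b were Ankhd1 (distance 0.23 log2 units), Saraf (0.25) and Gjb5 (0.27). Ankhd1 read 8.23 and 7.94 in J1 with Tet1 and control siRNA, and 6.69, 6.71 and 6.96 in E14 with shRNA3387, shRNA2863 and scramble. Nearest to Gadd45g were Rassf8 (0.14), Fbxo25 (0.21) and Csn3 (0.24), and Rassf8 differed from its controls by 0.74, 0.20 and -0.30. Nearest to Smug1 were Tcea1 (0.12), Naif1 (0.14) and 2610507B11Rik (0.15), and Tcea1 differed by -0.65, -0.09 and 0.10. Over 5 arrays such nearness is a description.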

How the data were processed

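Total RNA of 5 cultures was labelled with biotin (Affymetrix One Cycle kit, per the labels' protocols). The deposited table holds log2 summaries, 1 per probe set and array; the scale was inferred from the range of 1.38 to 14.12. How they were summarised, background-corrected and normalized is not given in the sources used here. Precision is limited by having 5 arrays. Platform annotation supplied gene names; 932 non-control probe sets with several symbols and 9160 with none stayed unnamed.

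All 29001 kept probe sets were fitted together in limma 3.58.1 (R 4.3.3; trended prior variance, two-sided tests, Benjamini-Hochberg threshold 0.05). The additive fit had 2 residual degrees of freedom. The fit with 4 group means had 1, from the hairpin arrays, whose spread stood in for that of the single arrays. P-values measure how far unlike depletions differ among themselves, since no group had a replicate array. This spread can hold unequal Tet1 depletion as well as technical differences. The labels name no batch. The additive fit was also run on simulated arrays with independent noise and the same change on every changed array. The depletions here are unlike each other, so that run does not give the error rate of these p-values. The members and lists were chosen with earlier results of these data known. Genes outside the 9 were named by size of mean difference (up to 4 per list), control difference (up to 2 per list) or nearness (3 per gene). Alternatives were quantile normalization, median centring, other filters, no trend, 1 row per gene, the tested term alone, 2-fold and leaving out arrays.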

Additional observations from a re-analysis of the deposited data

How the results depend on the processing

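The count of probe sets called was 0 for Tet1 depletion over both lines, for depletion in E14 and for the difference of effects under each alternative run. The count called between the lines was 4260, ran from 0 to 1925 without 1 array each, and was 1930 with 1 row per gene, where fewer rows were tested. Member probe sets past 1.5-fold numbered 2 in J1 after median centring (Gadd45g and Smug1), 0 with shRNA3387 with 1 row per gene, and 0 at 2-fold in J1 and with shRNA3387. Some small, uncalled estimates changed sign, and the cause was not tested. After quantile normalization these included Apobec1 between the lines (-0.027), and Mbd4 (-0.024) and Smug1 (-0.055) in E14. After median centring they included Apex1 (0.04) and Apobec1 (0.03) in E14. Of the single pair differences, Smug1 (-0.13) and Gadd45g (-0.01) with shRNA3387 changed sign after quantile normalization, and Gadd45a (0.01), Apex1 (0.02) and Apobec1 (0.04) with shRNA3387 and Apobec1 with shRNA2863 (0.02) after median centring. Without 1 of the J1 arrays, whichever it was, the estimates over both lines were those of E14: Ung 0.11, Mbd4 0.065, Smug1 0.055 and Gadd45g -0.115. Their ranges over the arrays left out ran from -0.44 to 0.11 for Ung, -0.19 to 0.07 for Mbd4, -0.58 to 0.06 for Smug1 and -0.12 to 0.64 for Gadd45g. Apex1 between the lines ran from -0.20 to 0.06, with 0.06 without the J1 Tet1 siRNA array, and Gadd45b over both lines from -0.37 to 0.28, with 0.28 without the scramble array. The Gadd45b line difference ran from 1.10 to 1.75. Smug1 passed the line test in limma at adjusted p = 0.0344 with the 60th percentile filter and 0.0433 with the line term alone. Those settings also called more probe sets over the whole array, 5606 (among fewer tested) and 4827, against 4260 in the main run. The Smug1 line difference ran from 0.625 to 1.26 over the arrays left out. E14 effects without 1 hairpin have no residual degree of freedom and were values with no test.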
